A study of Mus musculus with 12 samples.

Results

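Mbp, Ncmap and Fabp7 are genes of the peripheral nerve glia, and they were followed here in mouse skin RNA from a study of the grape seed extract NSPCC1 in skin ageing. They were found by symbol, with all transcript rows of a gene summed by gene ID, and account for 3 of the 7902 genes and 8 of the 10720 transcript rows in the tables. M+NSPCC1 skin came from mice given the ageing model and the extract, Model skin from mice aged with D-galactose combined with UVA/B irradiation, and Ctrl skin from control mice. Each group had 4 libraries, numbered 01 to 04, made from total RNA with a messenger RNA kit. The labels leave out what the Ctrl mice received, the strain, age and sex of the mice, doses, treatment times and the site on the body. They also do not tie each library to its own animal, so the p-values describe the spread among these samples, part of which may be technical.

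Schwann cells wrap the larger axons of skin nerves in myelin, a stack of membrane that speeds conduction, and enclose the thin sensory axons without myelin. Myelination is switched on by axonal neuregulin acting on ErbB receptors and by the transcription factors Sox10, Pou3f1 and Egr2. Mbp encodes myelin basic protein, which seals the cytoplasmic faces of the myelin membrane, and its messenger RNA is also made, in other transcript forms, by cells without myelin. Ncmap encodes a small non-compact myelin-associated membrane protein of peripheral nerve. Fabp7, the brain-type fatty acid binding protein, is a lipid carrier of radial glia and of immature Schwann cells, and pigment cells express it too. Myelinating Schwann cells are therefore known for high Mbp and Ncmap, and immature ones for Fabp7.

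The upstream regions of Ncmap and Fabp7 are shown because both genes are known to be glial, while their levels differed from Ctrl in opposite directions. The windows run from 250 to 51 bases before an annotated start, come from RefSeq with build GRCm38.p6, and are printed 5′ to 3′ on the gene's strand. Capitals mark matches, on either strand, to ACAAT, the core of SOX factor sites, or to GTGGGNG, an EGR-type site.
Ncmap, upstream start, chr4:135398278-135398477, minus strand: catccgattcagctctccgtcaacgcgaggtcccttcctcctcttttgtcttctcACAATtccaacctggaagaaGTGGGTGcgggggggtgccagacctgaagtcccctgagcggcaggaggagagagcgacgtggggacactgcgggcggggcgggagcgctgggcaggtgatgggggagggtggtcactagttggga
Ncmap, downstream start, chr4:135385723-135385922, minus strand: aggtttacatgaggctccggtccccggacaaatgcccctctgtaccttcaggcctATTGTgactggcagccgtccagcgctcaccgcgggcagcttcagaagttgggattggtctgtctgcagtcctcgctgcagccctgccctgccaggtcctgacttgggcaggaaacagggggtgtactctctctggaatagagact
Fabp7, chr10:57784673-57784872, plus strand: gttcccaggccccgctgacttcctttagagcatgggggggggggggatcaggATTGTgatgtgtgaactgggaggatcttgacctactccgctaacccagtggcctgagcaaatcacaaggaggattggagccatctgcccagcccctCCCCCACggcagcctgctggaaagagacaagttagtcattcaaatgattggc
All 3 windows held the SOX core, which 23.7% of 32851 promoter windows of the same 200 bases held, and the upstream Ncmap window and the Fabp7 window also held the EGR-type site, which 22.1% held. None of the 3 held CATGTG, an M-box of pigment cell genes found in 10.2% of windows, or ATGCAAAT, an octamer read by POU factors found in 1.32%. Matches this short are frequent, and they describe letters, not bound sites. In the same build the Ncmap gene spans chr4:135369576-135398240 and the Fabp7 gene chr10:57784923-57788450.

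The summed counts of the libraries ran from 9717338 to 10952623, and their relative depth, taken from counts and FPKM of the same transcripts, from 0.967 to 1.03. The tables hold mostly transcripts that differed from Ctrl, by a selection rule the labels do not state, so a difference from Ctrl is the ordinary case in them. Of the skin check list, 5 of 10 genes were in the tables, keratins of the epidermis and matrix genes of the dermis among them, and their summed level was at least 7737 CPM (counts scaled to a common library total by the TMM method) in every library. Of the Schwann cell genes listed, the myelin protein genes Pmp22, Prx and Mag and the glial calcium binding gene S100b had counts in every group. Ncam1 had none in M+NSPCC1 skin, and Ugt8a had none in 2 M+NSPCC1 and 3 Model libraries. Sox10 and Egr2 were not among the 9 of 13 listed myelination regulators with values.

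Both myelin genes were lower in Model than in Ctrl skin, and Fabp7 was higher. Mbp, which lies on chromosome 18 (82475091 to 82585637 in GRCm38.p6), had 73.7, 46.9, 108 and 70.2 CPM in the Model libraries 01 to 04, against 385, 443, 406 and 348 CPM in the Ctrl libraries 01 to 04. The highest Model library, 03, stayed far under the lowest Ctrl library, 04, and within Model skin the libraries 02 and 03 lay furthest apart. The log2 fold change of Model over Ctrl was -2.40 (SE 0.233, 95% interval -2.91 to -1.89, adjusted p = 2.76e-06 from the edgeR quasi-likelihood fit, Benjamini-Hochberg over 7638 genes), a 5.29-fold fall.

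Ncmap had 3.41, 2.22, 4.47 and 2.70 CPM in the Model libraries 01 to 04, against 16.7, 18.3, 13.7 and 14.7 CPM in the Ctrl libraries. The groups did not overlap, and Model 03 was again the highest and Model 02 the lowest of its group. Ncmap fell by 2.31 on the log2 scale in Model (SE 0.250, 95% interval -2.85 to -1.76, adjusted p = 6.4e-06, edgeR), a 4.95-fold fall. The intervals of the Mbp and Ncmap changes overlapped over most of their length.

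Fabp7 had 1.42, 2.41, 0.893 and 3.45 CPM in the Model libraries 01 to 04, against 0.774, 0.663, 0.429 and 0.540 CPM in the Ctrl libraries. These levels rest on 15, 26, 9 and 37 counts in Model and 7, 6, 4 and 5 counts in Ctrl libraries. The groups did not overlap, but Model 03, which was highest for both myelin genes, was lowest for Fabp7 and came close to Ctrl 01. Fabp7 rose by 1.75 on the log2 scale (SE 0.469, 95% interval 0.72 to 2.77, adjusted p = 0.00416, edgeR), a 3.36-fold rise with the widest interval of the 3 members. Fabp7 passed the filter on low counts only through the groups where it is high.

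All 3 members passed the test in this comparison, but so did 90.5% of the genes tested, with 41.4% lower and 49.1% higher in Model, and the groups did not overlap in 83.1%. A passed test is thus near the background of these tables and is not particular to the nerve genes. Over all genes tested the median log2 fold change was 0.255, and it was 0.083 with DESeq2's size factors and 0.432 with whole-library depth as scaling, so that the members lay on either side of it under each scaling. In bulk tissue, fewer cells of a type and less RNA per cell cannot be told apart.

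M+NSPCC1 skin stood close to Model skin for all 3 genes. Mbp had 111, 80.2, 66.0 and 74.7 CPM in the M+NSPCC1 libraries 01 to 04, which overlapped the Model values given above. Ncmap had 3.76, 3.62, 2.64 and 2.84 CPM, and these values lay wholly within the range of the Model libraries. Fabp7 had 1.93, 2.41, 4.01 and 2.31 CPM from 21, 26, 44 and 26 counts, again overlapping Model, with library 03 the highest for Fabp7 and the lowest for both myelin genes.

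None of these differences passed. The log2 fold change of M+NSPCC1 over Model was 0.15 for Mbp (95% interval -0.34 to 0.64, adjusted p = 0.983), 0.01 for Ncmap (-0.53 to 0.55, adjusted p = 1) and 0.38 for Fabp7 (-0.56 to 1.32, adjusted p = 0.961), all by edgeR. The intervals of Mbp and Ncmap leave out a 2-fold change in either direction, whereas that of Fabp7 does not leave out a 2-fold rise. No gene in the tables passed this comparison by edgeR, a background of 0%, and the groups did not overlap in 4.19% of genes, while 502 genes, or 6.57%, had an unadjusted p under 0.05 and DESeq2 called 74 genes. Neither tool called a gene of the 5 nerve lists described below.

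Against Ctrl skin, M+NSPCC1 skin repeated the pattern, with the same 4 Ctrl libraries serving both comparisons. Mbp was lower by a log2 fold change of -2.25 (95% interval -2.76 to -1.75, adjusted p = 4.78e-06), Ncmap by -2.30 (-2.85 to -1.75, adjusted p = 7.11e-06) and Fabp7 was higher by 2.12 (1.10 to 3.15, adjusted p = 0.00118), by edgeR. Here 93.2% of genes passed, with 43.1% lower and 50.1% higher in M+NSPCC1, and the groups did not overlap in 90.0%.

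**Figure D1:**
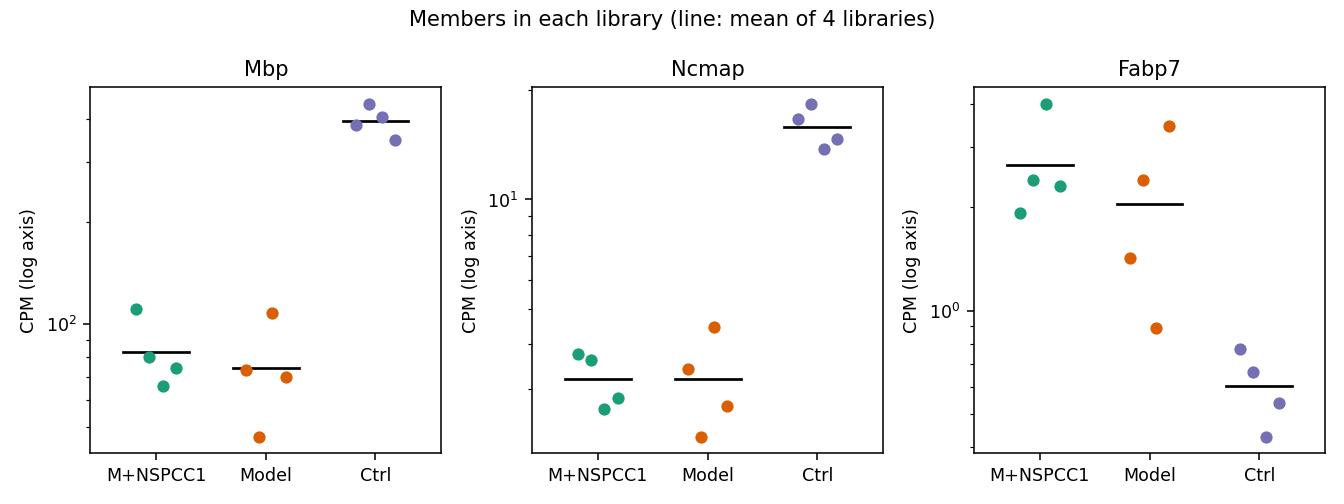
CPM on a log axis for Mbp, Ncmap and Fabp7 in the 4 libraries each of M+NSPCC1, Model and Ctrl skin; points are libraries and lines are group means. Every M+NSPCC1 and Model point lies under the Ctrl points for Mbp and Ncmap and over them for Fabp7, and M+NSPCC1 and Model overlap for all 3 genes.

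Setting the myelin genes against Fabp7 within a library removes the scaling between libraries. The count of Mbp was 57.5, 33.3, 16.5 and 32.4 times that of Fabp7 in the M+NSPCC1 libraries 01 to 04, 51.9, 19.5, 121 and 20.4 times in the Model libraries, and 497, 668, 946 and 645 times in the Ctrl libraries. The Model libraries spread most, with 03 highest and 02 and 04 lowest, and still none came near the lowest Ctrl library. As log2 ratios of CPM with a prior count of 2, the means were 4.88 ± 0.708 in M+NSPCC1, 5.15 ± 1.17 in Model and 8.97 ± 0.296 in Ctrl (SD, n = 4 each).

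Ncmap against Fabp7 gave the same order of groups. The count of Ncmap was 1.95, 1.5, 0.659 and 1.23 times that of Fabp7 in the M+NSPCC1 libraries, 2.40, 0.923, 5 and 0.784 times in the Model libraries, and 21.6, 27.7, 32.0 and 27.2 times in the Ctrl libraries. Thus Fabp7 had more counts than Ncmap in M+NSPCC1 03, Model 02 and Model 04, and far fewer in every Ctrl library. The mean log2 ratios were 0.29 ± 0.625 in M+NSPCC1, 0.70 ± 1.14 in Model and 4.34 ± 0.158 in Ctrl (SD, n = 4 each).

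Counts also reflect transcript length, so the same pair was read in FPKM, which is scaled by length. Fabp7 averaged 3.65 FPKM in M+NSPCC1, 2.73 in Model and 0.71 in Ctrl skin, while Ncmap averaged 1.48, 1.43 and 6.29 FPKM in the same 3 groups. The FPKM level of Fabp7 exceeded that of Ncmap in 4 of 4 M+NSPCC1 libraries, in 3 of 4 Model libraries, with Model 03 the exception, and in 0 of 4 Ctrl libraries. Mbp stayed above Fabp7 in every library.

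The mean log2 ratio of Mbp to Fabp7 differed by -3.82 between Model and Ctrl and by -4.09 between M+NSPCC1 and Ctrl, and that of Ncmap to Fabp7 by -3.64 and -4.05. Each gave p = 0.0286 in a two-sided exact permutation test of 4 against 4 libraries, the smallest p that such a test can give, and an adjusted p of 0.0643 over 9 comparisons, which misses 0.05. This p was fixed by the values above, as Mbp and Ncmap lay wholly under Ctrl and Fabp7 wholly over it. It is thus no evidence beyond the tests of the single genes. All 4 kept their sign on other scales, where the adjusted exact permutation p was 0.0643 with a prior count of 0.5, 0.0514 on log2(FPKM + 0.1) and 0.0429 on log2(FPKM + 1), so that they passed with only the last of these. The unadjusted p was the smallest possible on each scale. Its adjusted value fell only because ratios of Mbp to Ncmap also reached that p. The passed threshold is therefore no stronger result for the ratios to Fabp7. Between M+NSPCC1 and Model the differences were -0.27 and -0.41, with exact permutation p = 0.686 and 0.571, and the groups overlapped.

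The ratio of Mbp to Ncmap counts overlapped between all groups. The count of Mbp was 22.2 to 29.4 times that of Ncmap in M+NSPCC1, 21.1 to 26.0 times in Model and 23.1 to 29.6 times in Ctrl libraries. The mean log2 ratios were 4.59 ± 0.171, 4.44 ± 0.150 and 4.63 ± 0.162 in these groups (SD, n = 4 each). The differences of -0.18 for Model minus Ctrl, 0.15 for M+NSPCC1 minus Model and -0.03 for M+NSPCC1 minus Ctrl had exact permutation p = 0.229, 0.2 and 0.771. On log2(FPKM + 1), a scale that understates changes of low genes such as Ncmap, the difference from Ctrl was -0.80 in Model and -0.59 in M+NSPCC1, with an adjusted exact permutation p of 0.0429 for each. On log2(FPKM + 0.1) the same differences were -0.35 and -0.17 and did not pass (adjusted exact permutation p = 0.0514 and 0.294).

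**Figure D2:**
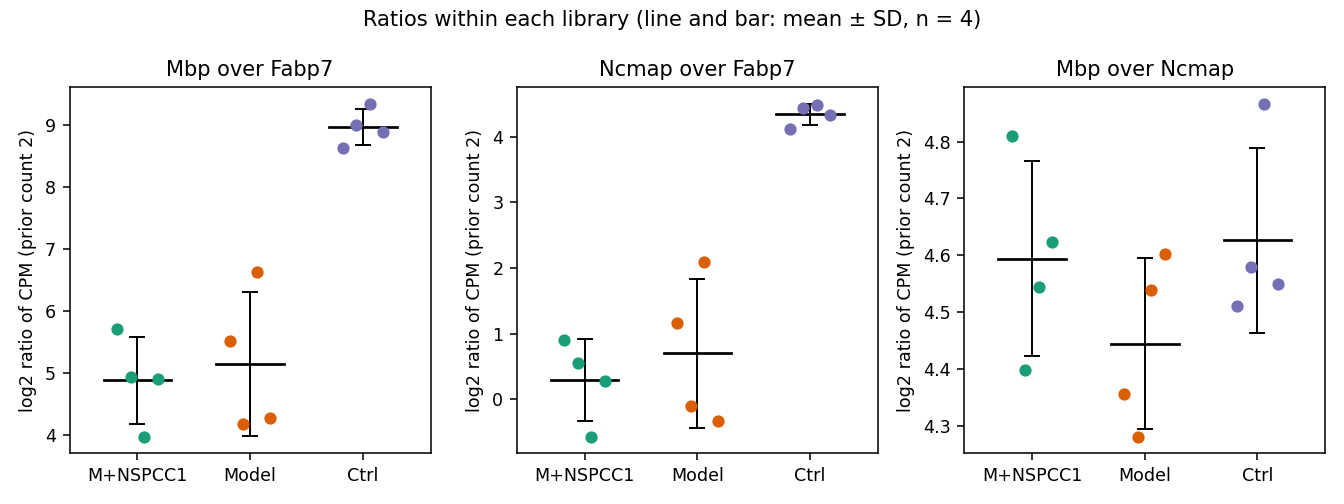
Log2 ratio of CPM (prior count 2) within each library for Mbp over Fabp7, Ncmap over Fabp7 and Mbp over Ncmap, in M+NSPCC1, Model and Ctrl skin; points are libraries, and lines with bars are mean ± SD of 4 libraries. Both ratios to Fabp7 are lower in all M+NSPCC1 and Model libraries than in any Ctrl library, with the widest spread in Model, while the ratio of Mbp to Ncmap overlaps between all groups.

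The transcript rows of Mbp did not fall evenly. The tables hold 5 rows for Mbp without transcript names, and 1 of them has an effective length, implied by its count and FPKM, well above that of the other 4. This longest row held 26.9%, 27.8%, 30.5% and 29.3% of the Mbp count in the M+NSPCC1 libraries 01 to 04, 27.7%, 39.3%, 31.3% and 31.6% in the Model libraries, and 16.5%, 14.7%, 16.9% and 16.9% in the Ctrl libraries. Every M+NSPCC1 and Model library lay above every Ctrl library, and Model 02, with the least Mbp, had the largest share.

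The share averaged 28.6 ± 1.60% in M+NSPCC1, 32.5 ± 4.88% in Model and 16.2 ± 1.06% in Ctrl (SD, n = 4 each). It was higher by 16.2 percentage points in Model than in Ctrl and by 12.4 points in M+NSPCC1 than in Ctrl, each with exact permutation p = 0.0286 (two-sided, the smallest possible) and an adjusted p of 0.0429 over 3 comparisons. M+NSPCC1 minus Model was -3.85 points (exact permutation p = 0.171), and -5.43 points without Model 01 (exact permutation p = 0.0286). This measure was chosen after its values were seen, and the reads of overlapping transcripts are divided among rows by estimation.

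In level, the longest row averaged 23.5 ± 4.27 CPM in M+NSPCC1, 23.7 ± 6.94 in Model and 64.0 ± 3.93 CPM in Ctrl skin, and the other 4 rows together 59.4 ± 15.2, 51.02 ± 18.9 and 331 ± 36.8 CPM (SD, n = 4 each). Fitted on transcript rows, the longest row changed by -1.40 on the log2 scale in Model against Ctrl (SE 0.188, adjusted p = 4.2e-05, edgeR over 10171 rows). The other 4 rows changed by -2.32 to -2.82 (largest adjusted p = 0.0166, edgeR). The interval of 1 of them, row 2 (-4.06 to -0.57), included the change of the longest row. In M+NSPCC1 against Ctrl row 2 changed by -1.535 and did not pass (adjusted p = 0.0731, edgeR), beside -1.415 for the longest row. The fall of the gene as a whole was therefore carried more by the shorter rows than by the longest.

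**Figure D3:**
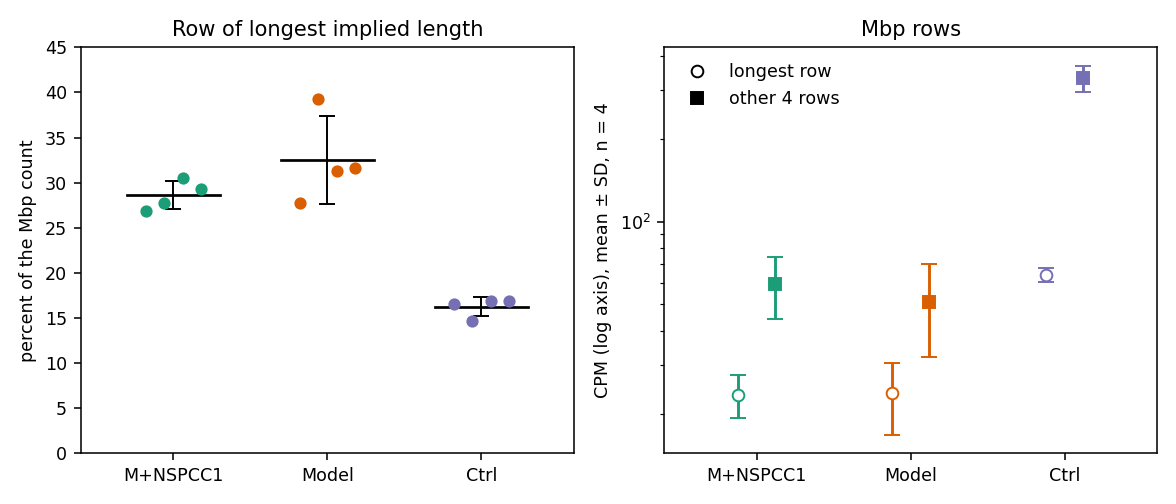
Left, percent of the Mbp count in the transcript row of longest implied length in each library of M+NSPCC1, Model and Ctrl skin, with mean ± SD (n = 4); right, CPM on a log axis (mean ± SD, n = 4) of that row (open circles) and of the other 4 rows together (filled squares). The share is 26.9% to 39.3% in M+NSPCC1 and Model and 14.7% to 16.9% in Ctrl libraries, as the other 4 rows together are further below Ctrl than the longest row.

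The other proteins of the myelin sheath moved with Mbp and Ncmap. Of 12 listed myelin protein genes 11 were in the tables, Mbp and Ncmap among them. All 11 fell in Model against Ctrl, where 41.4% of all genes tested did. Their median log2 fold change was -2.36, with a range of -3.56 to -1.81, beside a median of 0.255 over all genes tested. The largest fall, -3.56, was that of Pmp2, which passed the filter on low counts only through Ctrl, where it is high. Pmp22, a membrane protein of compact myelin, fell by 2.62, and Mag, the glycoprotein facing the axon, by 2.80 on the log2 scale. Prx, which with Drp2 links the outer Schwann cell membrane to the basal lamina, fell by 2.04, and Drp2 by 2.36. Cnp, a phosphodiesterase of the myelin cytoplasm, had the smallest change, -1.81 on the log2 scale. Mbp and Ncmap thus lay near the middle of this list.

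The same libraries ranked high or low for most of the list. Model 02 had the lowest level of 10 of the 11 genes within Model and Model 03 the highest of 9, while M+NSPCC1 01 had the highest of 9 and Ctrl 04 the lowest of 10. The summed myelin protein level was 335, 272, 253 and 256 CPM in the M+NSPCC1 libraries 01 to 04, 260, 155, 361 and 243 CPM in the Model libraries, and 1332, 1451, 1342 and 1142 CPM in the Ctrl libraries.

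In order of FPKM level, Mbp was the second of the 11 in all groups, after Pmp22. It averaged 24.1 ± 5.60 FPKM in M+NSPCC1, 20.6 ± 6.84 in Model and 108 ± 10.8 in Ctrl (SD, n = 4 each). In M+NSPCC1 and in Ctrl it overlapped neither Pmp22 above it nor Cnp below it, but in Model it overlapped both. Ncmap was 7th in M+NSPCC1, 6th in Model and 7th in Ctrl skin, and overlapped its neighbours Drp2 and Pllp in M+NSPCC1, Mal and Drp2 in Model, and Cldn19 and Drp2 in Ctrl.

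Enzymes of the myelin lipids were fewer in the tables. Of 3 genes tested, 2 fell in Model against Ctrl: Ugt8a, which makes galactocerebroside, by 4.93 and Cers2, a synthase of very long chain ceramides, by 1.05 on the log2 scale. Ugt8a had no count in 3 of the 4 Model libraries, and its value rests on 17 counts in Model 03: without that library the Model group has no count, and the fitted log2 change of -10.06 is then no measure of size. Ugt8a passed the filter on low counts only through Ctrl, where it is high. Gal3st1, which sulfates galactocerebroside, had a log2 fold change of -0.36 and did not pass (adjusted p = 0.313, edgeR).

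Regulators of myelination went both ways, 5 rising and 4 falling among 9 tested of 13 listed in Model against Ctrl, a split near the 49.1% higher and 41.4% lower of all genes tested. The growth factor gene Nrg1 averaged 8.67 ± 1.98 CPM in Model, against 0.137 ± 0.104 CPM in Ctrl (SD, n = 4 each), a log2 fold change of 5.87 that rests on about 5.54 counts over the Ctrl group. Like Fabp7, Nrg1 passed the filter on low counts only through the groups where it is high. Its receptor genes Erbb2 and Erbb3 rose by 1.17 and 1.14. The transcription factor Pou3f1 rose by 1.26 and Nab2, a partner of EGR factors, by 1.28. The Schwann cell signals Dhh and Lgi4 fell by 2.30 and 2.14, Zeb2, a transcription factor required for myelination, by 2.16, and the laminin receptor gene Dag1 by 0.58. Epidermal and hair follicle cells are known to express Erbb2, Erbb3 and Pou3f1 as well. These levels thus need not be those of Schwann cells alone. The same limit holds for the genes that fell, here and in the other nerve lists, as the cells behind their levels were not tested.

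Fabp7 was not followed by the whole list of immature and non-myelinating Schwann cell genes. Of 16 listed, 9 were tested, and in Model against Ctrl 3 rose and 5 fell. Beside Fabp7, Olig1, a glial transcription factor of the central nervous system, rose by 2.92, with 56 counts over the Model group and 6 over Ctrl, and the artemin receptor gene Gfra3 by 0.91. Like Fabp7, Olig1 passed the filter on low counts only through the groups where it is high, and it was left out of the fits of only the 8 libraries compared and of log2 FPKM in this comparison. Scn7a, a sodium channel gene of non-myelinating Schwann cells, fell by 2.13, the cell adhesion genes Cdh2 and Cdh19 by 1.47 and 1.20, and S100b by 1.11. Ncam1 had 0 counts over the M+NSPCC1 group, 3.03 over Model and 124 over Ctrl, at least 49.6-fold lower in M+NSPCC1 than in Ctrl with a floor of 3 counts over the group. Ncam1 passed the filter on low counts only through Ctrl, where it is high. Ngfr, the low-affinity neurotrophin receptor gene, had a log2 fold change of -0.07 and did not pass (adjusted p = 0.776, edgeR).

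Genes of the axon and the node of Ranvier were also split. Of 6 tested of 17 listed, Tubb3, a neuronal tubulin gene, and Sptbn4, a spectrin gene of the node, rose by 4.01 and 1.90. Whether the Tubb3 RNA of this skin came from axons was not tested. Kcna1, a potassium channel gene beside the node, Ank3 and Nfasc fell by 2.58, 1.85 and 3.29. The change of Nfasc, which had no count in 2 Model libraries, was -5.73 without Model 04. Nfasc passed the filter on low counts only through Ctrl, and Sptbn4 only through the other groups. For all genes that passed the filter in such a way the direction against Ctrl was fixed in advance, and the counts that follow include them. Nrcam did not pass (log2 fold change 3.10, adjusted p = 0.0651, edgeR). Over the 5 nerve lists, 38 of 62 genes were tested, of which 10 rose, 25 fell and 3 did not pass in Model against Ctrl, and 11 rose, 26 fell and 1 did not pass in M+NSPCC1 against Ctrl. The shares that passed, 35 of 38 and 37 of 38, are near the 90.5% and 93.2% of all genes tested, so passing is no result about these lists. Those passing in Model against Ctrl numbered 33 with only the 8 libraries compared and 31 with limma on log2 FPKM, and those in M+NSPCC1 against Ctrl 32 with limma, where the filters left out genes of low level.

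**Figure D4:**
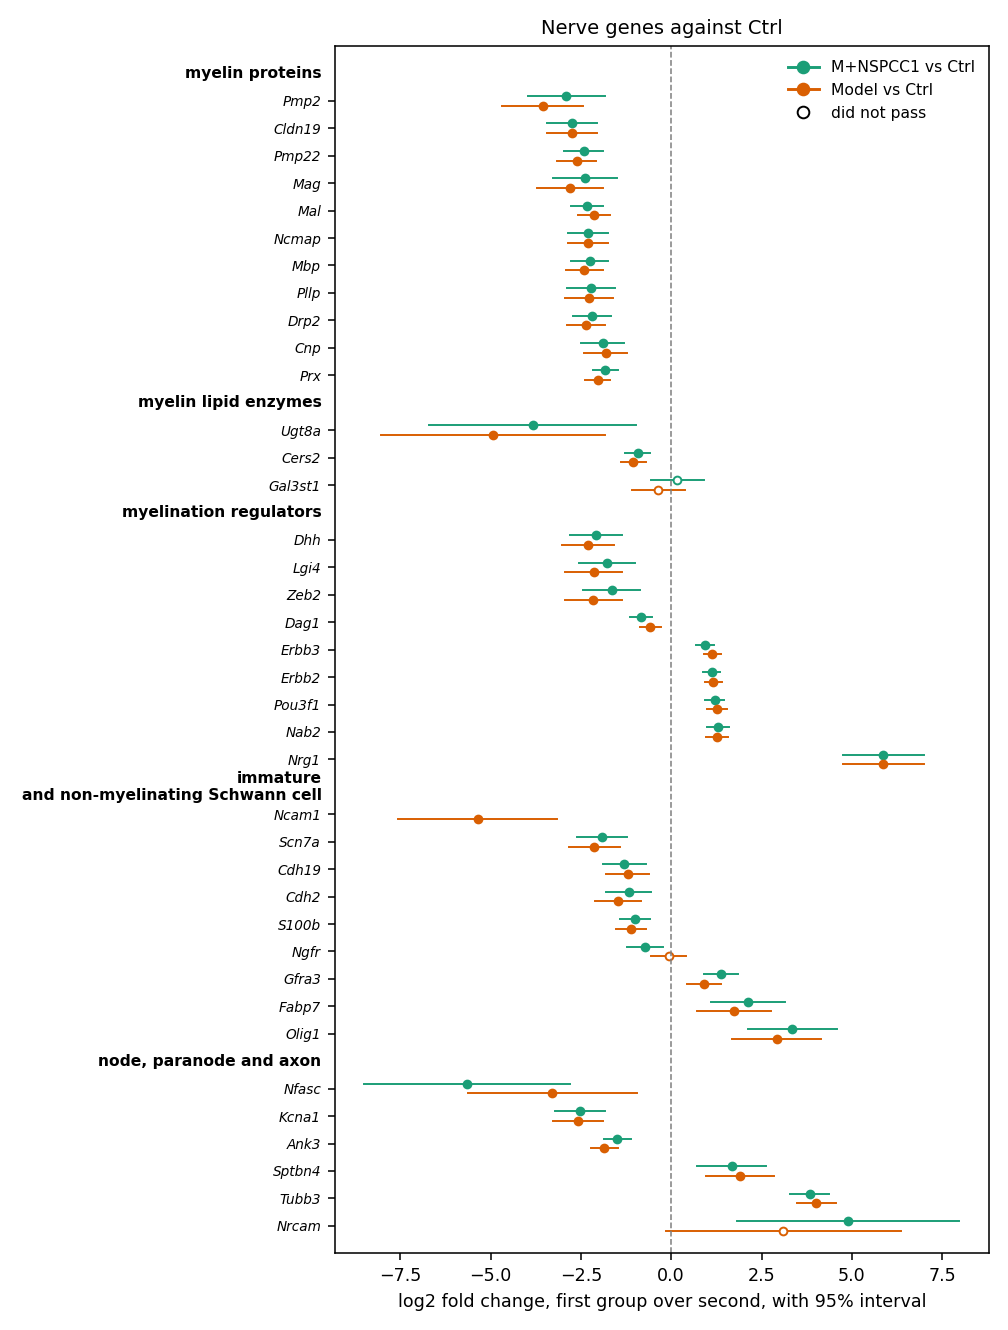
Log2 fold changes with 95% intervals of the tested genes of 5 nerve lists, for M+NSPCC1 over Ctrl and Model over Ctrl (4 libraries per group); open circles did not pass, and the M+NSPCC1 value of Ncam1 is not drawn because that group had no count. All 11 myelin proteins lie left of 0. Of the 9 immature and non-myelinating Schwann cell genes, Fabp7, Olig1 and Gfra3 lie right of 0 and 6 lie left. Of the 9 myelination regulators 5 lie right of 0, Nrg1 among them, and 4 lie left.

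In M+NSPCC1 against Model none of the 38 passed by edgeR, with 25 positive and 13 negative log2 fold changes and a median of 0.11. Among the myelin proteins 8 of 11 were positive, with a range of -0.20 to 0.66. The smallest p of the nerve lists belonged to Ngfr, at 12.9 ± 2.07 CPM in M+NSPCC1 against 20.4 ± 6.88 CPM in Model, and to Gfra3, at 15.01 ± 2.56 and 10.9 ± 2.18 CPM in the same groups (SD, n = 4 each; adjusted p = 0.621 and 0.729, edgeR).

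**Figure D5:**
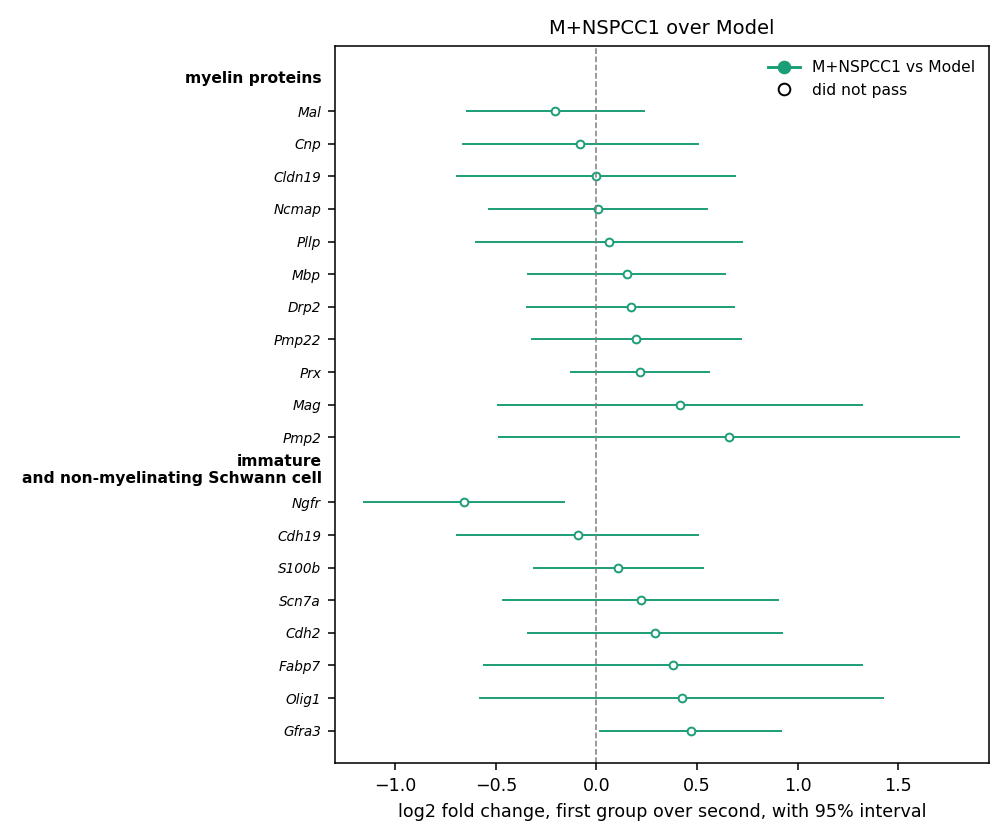
Log2 fold change, M+NSPCC1 over Model, with its 95% interval for each of the myelin proteins and the immature and non-myelinating Schwann cell genes (4 libraries per group); Ncam1, with no count in M+NSPCC1, is left out. None passed, and the intervals of Mbp (-0.34 to 0.64), Ncmap (-0.53 to 0.55) and Fabp7 (-0.56 to 1.32) all include 0.

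Fabp7 belongs to a family of fatty acid carriers of which 5 genes were in the tables. In Model against Ctrl, Fabp5, the epidermal member, rose by 1.08, averaging 2084 ± 275 CPM in Model, against 988 ± 55.5 CPM in Ctrl (SD, n = 4 each). Fabp9, a testis member, had 37 counts over the Model group and 0 over Ctrl, at least 10.7-fold higher with a floor of 3 counts over the group. It passed the filter on low counts only through the groups where it is high. A filter of at least 1 CPM in 4 libraries left it out, as did the fit of only the 8 libraries compared. Fabp3, the muscle and heart member, fell by 3.67. Pmp2, the family member of peripheral myelin, fell by 3.56, with 15 counts over the Model group and 159 over Ctrl. It passed the filter on low counts only through Ctrl, where it is high, and Fabp7 only through the other groups. Fabp7 and Pmp2, both known from Schwann cells, thus moved in opposite directions.

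Markers of other tissues moved with these genes. All 16 melanocyte pigment genes rose in Model against Ctrl (median log2 fold change 6.21), with summed levels of 2219 to 3499 CPM in M+NSPCC1, 1330 to 3505 CPM in Model and 208 to 227 CPM in Ctrl libraries, and none at 0 over a group. Within Model, library 03 was lowest both in this sum and in Fabp7, and library 04 was highest in both. The other groups did not share this order throughout: M+NSPCC1 01 was lowest in both, but M+NSPCC1 04 was highest in the sum and M+NSPCC1 03 in Fabp7, and Ctrl 03 was highest in the sum and lowest in Fabp7. All 17 skeletal muscle genes fell (median -3.22), with sums of 12095 to 18445 CPM in M+NSPCC1, 4997 to 17215 CPM in Model and 89150 to 97023 CPM in Ctrl libraries, and Model 02 and 03 were their lowest and highest Model libraries, as for Mbp and Ncmap. This order was not particular to muscle. The endothelial, dermal fibroblast and skin check sums had the same lowest and highest Model libraries, whereas the adipocyte sum was lowest in Model 04. Endothelial genes fell in 10 of 10 cases, dermal fibroblast genes in 7 of 7 and adipocyte genes in 6 of 6, while 15 of 15 hair shaft genes rose, beside 41.4% lower and 49.1% higher of all genes tested. The hair shaft genes together had only 5.07 CPM in Ctrl 04. Most of them could thus pass the filter on low counts only through the other groups, which fixed their rise in advance. Like Fabp7, the hair shaft sum was lowest in Model 03 and M+NSPCC1 01 and highest in M+NSPCC1 03. Unlike Fabp7, it was highest in Model 02, and its lowest and highest Ctrl libraries were 04 and 02. The part of these tissues in the levels of Mbp, Ncmap and Fabp7 was not tested.

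Genes whose pattern over the 12 libraries was nearest to a member were ranked among 7543 genes by the root mean square difference of centred log2 CPM. Nearest to Mbp were Sec31b, a vesicle coat gene (0.127), Ehbp1l1 (0.141) and Ncmap itself (0.160). Nearest to Ncmap were Rcsd1 (0.118), the myelin gene Mal (0.124) and Sec31b (0.129), with Mbp at rank 9. Fabp7 had no gene as near: Dennd2c (0.313), Egfl6, a secreted protein of the hair follicle (0.339), and the histone chaperone gene Asf1b (0.340) came first. Low counts of Fabp7 add counting error to its distances.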

How the data were processed

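RNA of mouse skin was isolated with TRIzol, per the labels' protocols, and libraries were grouped by their titles. The authors deposited estimated counts and FPKM per transcript row and library; build mm10, RSEM 1.3.1, HISAT2 2.2.1 and DESeq2 1.34.0 stand, without roles, in the submitters' processing notes. Estimated counts, which need not be whole, were summed by gene ID and rounded. edgeR 4.0.16 (R 4.3.3) fitted all 12 libraries with a coefficient per group, TMM scaling, its default filter on low counts and the quasi-likelihood test. P-values were adjusted by Benjamini-Hochberg over the 7638 genes that passed the filter, with a threshold of 0.05. CPM were computed on the TMM-scaled library sizes. Ratios within libraries used log2 CPM with a prior count of 2 and exact permutation of 4 against 4 libraries. The edgeR step was tested on simulated data with known changes, in which few genes changed, evenly up and down. Most genes here differ from Ctrl, so that test does not cover the scaling of these tables. Intervals cover 95%, and floors of 3 counts cover counting error only. Promoter windows came from RefSeq's GRCm38.p6 and were screened for exons with GENCODE release M21. Alternatives were DESeq2 1.42.0 and its size factors, whole-library depth as scaling, other filters, limma 3.58.1 on log2 FPKM, the replicate number as a block, only the 8 libraries compared, and each library left out. The text may name every tested gene of the nerve and fatty acid binding protein lists, and the 3 nearest patterns of each member. A few items of the lists are not reported here and were left out of the counts. Members and lists were chosen with earlier results of these data known.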

Additional observations from a re-analysis of the deposited data

Results flagged for a closer look

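None of the 3 members had a library far from the rest of its group. Single libraries of other genes did, by Dixon's test at its 95% critical value over 135 groups of 4 values, where chance flags about 1 in 20 groups. The high values were Pou3f1 at 80.6 CPM in M+NSPCC1 04, Nrg1 at 13.1 CPM in M+NSPCC1 03, Kcna1 at 11.9 CPM in M+NSPCC1 01, Sptbn4 at 2.78 CPM in Model 02 and Ngfr at 24.7 CPM in Ctrl 04. The low values were Erbb3 at 169.8 CPM in Model 03, Fabp3 at 12.8 CPM in M+NSPCC1 03, with 32.9 to 35.5 in the others, and Fabp5 at 1710 CPM in M+NSPCC1 02. For genes at or near 0 elsewhere in the group, the lone libraries were Nfasc at 0.273 CPM in M+NSPCC1 03 and 1.398 CPM in Model 04, Ugt8a at 1.69 CPM in Model 03, Ncam1 at 0.284 CPM in Model 01, and Nrcam at 1.98 CPM in Model 03 and 0.215 CPM in Ctrl 03.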

How the results depend on the processing

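Against Ctrl, Mbp, Ncmap and Fabp7 kept direction and call under every alternative run, except that with only the 8 libraries compared the filter left Fabp7 out of Model against Ctrl. Leaving out each library gave -2.64 to -2.20 for Mbp, -2.51 to -2.13 for Ncmap and 1.376 to 1.995 for Fabp7 in Model over Ctrl. In M+NSPCC1 over Model it gave -0.021 to 0.383 for Mbp and -0.13 to 0.21 for Ncmap, so neither sign was stable, and -0.59 to 0.23 and -0.76 to 0.049 for the log2 ratios of Mbp and of Ncmap to Fabp7. For Mbp over Ncmap in M+NSPCC1 against Ctrl it gave -0.104 to 0.048, and a prior count of 0.5 gave 0.017. On log2(FPKM + 1) the ratios passed (adjusted exact permutation p = 0.0429): Mbp over Fabp7 -3.55 in M+NSPCC1 and -3.43 in Model against Ctrl, Ncmap over Fabp7 -2.96 and -2.63, and Mbp over Ncmap -0.59 and -0.80. On log2(FPKM + 0.1) none of them passed (adjusted p = 0.0514 for the 4 ratios to Fabp7, 0.294 and 0.0514 for Mbp over Ncmap), nor did the ratios to Fabp7 with a prior count of 0.5 (0.0643). The ratios to Fabp7 against Ctrl had the smallest possible exact permutation p on each of these scales. Their adjusted p moved only with the number of ratios of Mbp to Ncmap at that p. The share of the longest Mbp row in M+NSPCC1 minus Model ran from -5.43 to -1.57 points with each library left out and reached an exact permutation p of 0.0286 without Model 01. Ngfr in Model over Ctrl, which did not pass, turned to 0.11 with whole-library depth and to 0.050 with limma on log2(FPKM + 1) and 0.051 on log2(FPKM + 0.1), and ran from -0.21 to 0.075 with each library left out. Nrcam in Model over Ctrl passed without Ctrl 03, Model 01 or Model 04. Genes called in M+NSPCC1 against Model numbered 0 in the fit of all libraries, 74 with DESeq2, 2 with only the 8 libraries compared, and 0 to 4 with a library left out, with 4 without M+NSPCC1 01 and 2 without Model 03. The cause of the shifts was not tested.

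Same-numbered libraries correlated by -0.162 to 0.119 in their deviations from the group means, so the numbers do not pair them. With the replicate block the log2 fold changes of Model over Ctrl were -2.43 for Mbp, -2.31 for Ncmap and 1.67 for Fabp7, all passing. The share of the longest Mbp row, 16.2 points higher in Model and 12.4 points higher in M+NSPCC1 than in Ctrl, had p = 0.125 under the block, the smallest an exact test of 4 pairs can give. The counts of 4 to 7 of Fabp7 in Ctrl limit the size of its rise.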

Other observations

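The 2 transcript rows of Ncmap shifted between libraries more than the gene did. Row 1 held 42.7%, 18%, 100% and 55.4% of the Ncmap count in the M+NSPCC1 libraries 01 to 04, 66.4%, 33.1%, 63.9% and 55.3% in the Model libraries, and 45.5%, 44.2%, 31.2% and 33.2% in the Ctrl libraries. The groups overlap, and in M+NSPCC1 03 row 2 was listed at 0. Fitted on rows, the log2 fold changes of Model over Ctrl were -1.71 for row 1 and -2.79 for row 2 (adjusted p = 0.00668 and 0.00424, edgeR's quasi-likelihood test over 10171 rows). With 24 to 45.2 counts for the whole gene in Model libraries and 29 to 41 in M+NSPCC1 libraries, these shares rest on few reads divided by estimation. The single Fabp7 row gave 1.78 for Model over Ctrl (adjusted p = 0.00462), close to the gene's value.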
